A study of Mus musculus with 3 samples.

Results

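A set of 9 genes of blood clotting and clot breakdown was read in polyadenylated RNA of mouse macrophages: F3, F5, F7, F10, F13a1, Thbd, Plau, Plaur and Serpinb2. They were chosen by symbol and not by a rule on measured values, but with earlier results of these data known. All 9 were found among the 55536 mouse genes quantified. The cells were primary macrophages grown from bone marrow of the inbred mouse strain C57BL/6J and exposed for 180 min to 100 ng/mL of a stimulus, which 1 label calls lipid A, the membrane anchor of bacterial lipopolysaccharide, and others call lipoprotein A, a protein. Libraries were made from 1 µg of RNA in 3 biological replicates, which form a single group and carry 1 shared donor identifier. Age and sex were not collected. No unstimulated group was analysed here, so the values below are levels within stimulated macrophages and their spread over 3 libraries, and none of them is a response to the stimulus. The labels do not state a question.

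Clotting starts when tissue factor, encoded by F3, meets factor VII in the blood and the pair activates factor X. Factor Xa with its cofactor factor V turns prothrombin into thrombin, thrombin turns fibrinogen into fibrin, and factor XIII cross-links the fibrin strands. Thrombomodulin, encoded by Thbd, holds thrombin at the cell surface and redirects it to activate the anticoagulant protein C. Clot breakdown runs through plasmin: urokinase, encoded by Plau, cuts plasminogen while bound to its receptor, encoded by Plaur, and is inhibited by serpins, among them the product of Serpinb2. Most plasma factors are made in the liver, whereas monocytes and macrophages are known to make tissue factor, factor XIII subunit A, urokinase, its receptor and Serpinb2.

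Depth was uneven, with 24450338, 34641026 and 60595742 expected counts (estimated fragment counts that need not be whole) over mouse genes in replicates 1 to 3. All 10 macrophage markers were detected, that is at 1 TPM or more in every library (TPM is a share of all transcripts, scaled for their length), and were led by Lyz2 and Cd68. None of 7 hepatocyte markers had a count in any library. Markers of other blood cells were uneven. The 9 neutrophil markers, led by S100a9 and S100a8, summed to 93.5, 728.8 and 55.6 TPM and each of the 9 was highest in replicate 2. The 7 megakaryocyte and platelet markers, led by Pf4 and Ppbp, summed to 325.1, 1014 and 228.7 TPM and were likewise all highest in replicate 2. Nearly all of these sums was Pf4 alone, at 322.3, 1001 and 225.8 TPM. The platelet receptor genes Gp1bb, Gp9 and Gp6, named here after their values were seen, had means of 0.21 TPM or less. The 7 stromal markers summed to 0.51, 7.64 and 0.98 TPM, and the 8 endothelial markers, of which Tek had no count, to 34.5, 15.1 and 38.5 TPM. In such bulk RNA, fewer cells of a type and less RNA per cell cannot be told apart.

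Plaur was by far the most abundant of the 9 genes and Thbd and F5 the least, over a range from 127 to 0.253 TPM in mean level. Of the 9 genes, 7 were detected, beside 18.1% of all mouse genes; since the genes were chosen with earlier results of these data known, nothing is read from that difference. The median detected gene stood at 14.6 ± 0.535 TPM (SD, n = 3). Plaur, Serpinb2 and F13a1 lay above that median in every library, F10 in every library but by a narrow margin, Plau only in replicate 2, and F3, F7, F5 and Thbd in none.

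**Figure D1:**
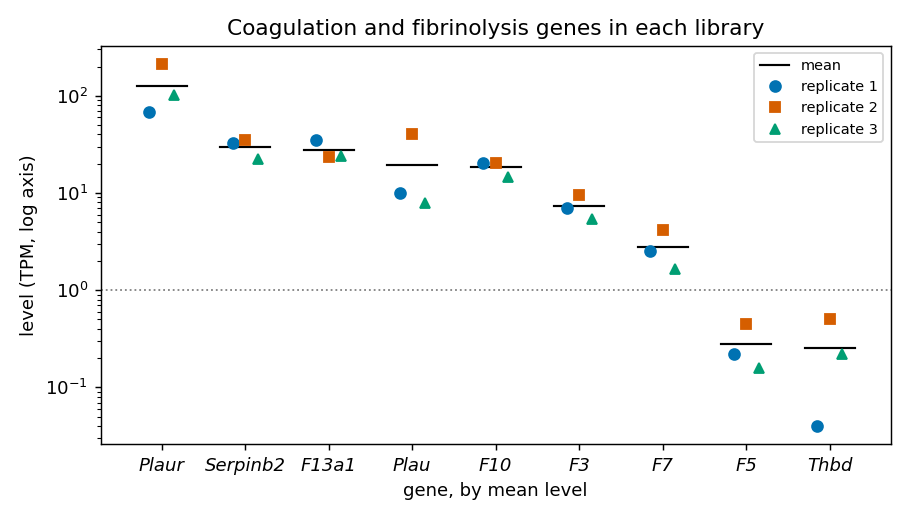
Level of each of the 9 genes in each library (TPM, log axis), ordered by mean level; points are the 3 replicates, the short bars are means, and the dotted line marks 1 TPM. Plaur leads at 68.8 to 212.1 TPM, F5 and Thbd lie below 1 TPM in every library, and the replicate 2 point is highest for 7 of the 9 genes.

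In the order of mean levels, 4 of the 8 steps between neighbours were larger than their own spread and had the same direction in all 3 libraries. Plaur stood above Serpinb2 by 1.96 ± 0.78 in log2(TPM + 0.1) (SD, n = 3), F10 above F3 by 1.35 ± 0.24, F3 above F7 by 1.40 ± 0.23 and F7 above F5 by 2.93 ± 0.14. The other steps could not be ordered. Serpinb2 and F13a1 differed by 0.12 ± 0.38, F13a1 and Plau by 0.87 ± 1.41, Plau and F10 by -0.30 ± 1.12, and F5 and Thbd by 0.26 ± 0.82 in log2(TPM + 0.1).

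Plaur encodes the urokinase receptor, a protein anchored in the outer membrane by a lipid tail. It was read at 68.8, 212.1 and 101.4 TPM in replicates 1, 2 and 3 (127 ± 75.1, SD, n = 3), from 1305, 5724 and 4491 expected counts. All 3 libraries placed it well above the median detected gene, by 2.95 ± 0.79 on the log2 scale, and 10.6% of detected genes had a higher mean. The value of replicate 2 was 3.08 times that of replicate 1. The gene (ENSMUSG00000046223.10) lies on the plus strand of chromosome 7, chr7:24462484-24475968 (mm10, GENCODE M21), and no annotated gene overlaps it.

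Plau encodes urokinase, the protease that binds this receptor. It was read at 10, 40.2 and 7.95 TPM (19.4 ± 18.03, SD, n = 3). Replicate 2 stood apart, and replicates 1 and 3 were close to each other. Within each library Plaur exceeded Plau, by 2.77, 2.40 and 3.66 in log2(TPM + 0.1), a mean of 2.94 ± 0.65 or 7.68-fold. The gene (ENSMUSG00000021822.3) lies at chr14:20836660-20843385 on the plus strand.

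Plat encodes tissue plasminogen activator, the other activator of plasminogen, and was read at 0.58, 5.05 and 1.38 TPM. Plau exceeded it by 3.89, 2.97 and 2.44 in log2(TPM + 0.1) (3.10 ± 0.73, SD, n = 3). Both activators were highest in replicate 2. Plg, which encodes their substrate plasminogen, had no count in any library.

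Serpinb2 encodes plasminogen activator inhibitor 2, a serpin that stays largely inside the cell. It was read at 32.3, 34.8 and 22.4 TPM (29.8 ± 6.60, SD, n = 3), a narrow range beside those of Plau and Plaur. The log2 difference, Plau minus Serpinb2, was -1.68, 0.20 and -1.48, so Plau was below Serpinb2 in replicates 1 and 3 and slightly above it in replicate 2, and the order of the activator and this inhibitor was not fixed in these libraries. Its mean without replicate 2 was -1.58, against -0.99 ± 1.04 with it.

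Serpinb2 (ENSMUSG00000062345.10) lies at chr1:107511423-107535478 on the plus strand, within a cluster of clade B serpins. The gene Serpinb10 overlaps it on the same strand and was read at 0.19, 0.36 and 0.03 TPM; how reads shared by both were divided is not known. Of 8 clade B serpins listed, 5 were detected. Serpinb6a was the most abundant at 603.1, 816.4 and 688.8 TPM and Serpinb2 came next by mean level.

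The plasminogen list held 13 genes, of which 8 were detected, 3 of them the genes above. The most abundant were Anxa2 (494.8, 766.7 and 582.0 TPM) and S100a10 (485.9, 613.5 and 444.7 TPM), whose products form a complex that binds plasminogen at the cell surface. Both stood above Plaur in every library. Of the 10 genes of this list outside the 9, 5 were detected.

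The bases before the start site are shown for Plaur, Serpinb2 and F3 because these 3 of the 7 genes with a RefSeq window held a match to the AP-1 motif (TGANTCA), present in 6.75% of 32851 mouse windows of the same 250-base length. Sequences are from RefSeq (GRCm38.p6), 5′ to 3′ on the gene's strand and ending at the base before its annotated start, and capitals mark motif matches on either strand. A match is a description of letters, not of binding.
Plaur, chr7:24462233-24462482, plus strand: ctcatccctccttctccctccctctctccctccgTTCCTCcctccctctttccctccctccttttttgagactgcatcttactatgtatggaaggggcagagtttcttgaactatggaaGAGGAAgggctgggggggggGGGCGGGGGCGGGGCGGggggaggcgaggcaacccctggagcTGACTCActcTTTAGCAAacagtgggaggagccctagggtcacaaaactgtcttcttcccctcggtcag
Serpinb2, chr1:107511173-107511422, plus strand: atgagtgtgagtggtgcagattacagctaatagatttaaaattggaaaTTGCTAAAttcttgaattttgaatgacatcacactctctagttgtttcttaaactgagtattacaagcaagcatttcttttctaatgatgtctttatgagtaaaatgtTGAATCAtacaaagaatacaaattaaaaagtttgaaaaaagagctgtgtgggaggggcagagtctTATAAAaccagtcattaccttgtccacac
F3, chr3:121723287-121723536, plus strand: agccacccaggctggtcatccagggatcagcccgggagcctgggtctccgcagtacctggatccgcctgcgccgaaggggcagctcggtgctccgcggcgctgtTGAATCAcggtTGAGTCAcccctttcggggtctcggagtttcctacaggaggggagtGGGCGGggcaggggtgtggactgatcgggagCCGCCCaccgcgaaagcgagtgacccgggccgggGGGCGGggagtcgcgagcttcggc
The windows differed in their other letters. Plaur had its AP-1 match from -69 to -63 before the start, a C/EBP match (TTGCNNAA, in 9.56% of windows) from -59 to -52, 2 PU.1 core matches (GAGGAA, in 23.3% of windows) and 3 GC boxes (GGGCGG, in 32.7% of windows) that abut or overlap by a base. Serpinb2 had its AP-1 match from -94 to -88, a C/EBP match from -202 to -195 and a TATA box (TATAAA, in 12.4% of windows) from -29 to -24. F3 had AP-1 matches from -146 to -140 and from -135 to -129 and 3 GC boxes. Of the other genes, F5 had 1 GC box, F7 had 1 PU.1 core match and F10 had no match. The F3 window was 70.0% G or C and the Serpinb2 window 32.4%, around a median of 52.4% over all windows. No window of the 7 genes matched the kappa B pattern searched (in 1.41% of windows) or the cAMP response element (TGACGTCA, in 1.55%). None matched the interferon response element (in 2.98%) or the E box (CACGTG, in 6.02%) either. Each motif was searched as a single pattern of letters, and for kappa B a narrow one, so sites in other forms were not sought. The absence of a match, as for kappa B in the F3 window, is therefore not the absence of a site. No window was used for Plau and Thbd.

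F3 encodes tissue factor, the membrane protein that starts clotting. It was read at 6.95, 9.53 and 5.34 TPM (7.27 ± 2.11, SD, n = 3), from 171, 318 and 308 expected counts. All 3 libraries placed it below the median detected gene, by -1.04 ± 0.36 on the log2 scale, and 67.8% of detected genes had a higher mean. The gene (ENSMUSG00000028128.13) lies at chr3:121723537-121735048 on the plus strand and no annotated gene overlaps it.

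Tfpi encodes tissue factor pathway inhibitor, which blocks factor Xa and the complex of tissue factor with factor VIIa. It was read at 12.1, 19.0 and 10.6 TPM and was above F3 in every library. The log2 difference, F3 minus Tfpi, was -0.79, -0.99 and -0.97 (-0.92 ± 0.11, SD, n = 3), so Tfpi was 1.89-fold higher with the smallest spread of the 10 gene pairs compared. Both genes had their highest value in replicate 2, and their ratio moved little.

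F7 (ENSMUSG00000031443.7) and F10 (ENSMUSG00000031444.16) are neighbours on chromosome 8, on the plus strand, at chr8:13026034-13035809 and chr8:13037308-13056676, with 1498 bases between them. F7 encodes factor VII, the partner of tissue factor, and was read at 2.53, 4.21 and 1.67 TPM (2.80 ± 1.29, SD, n = 3). F10 encodes factor X, the substrate of that pair, and was read at 20.5, 20.2 and 14.5 TPM (18.4 ± 3.36). F10 exceeded F7 in all libraries, by 2.97, 2.24 and 3.05 in log2(TPM + 0.1) (2.75 ± 0.45), or 6.73-fold. The neighbour on the other side of F10, Proz, encodes protein Z, a cofactor in the inhibition of factor Xa; chosen after its values were seen, it was read at 0.43, 0.34 and 0.49 TPM.

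F5 encodes factor V, the cofactor of factor Xa, and was read at 0.22, 0.45 and 0.16 TPM from 25, 75 and 45 expected counts. It was below 1 TPM in every library. F10 exceeded it by 5.68 ± 0.42 in log2(TPM + 0.1) (SD, n = 3), and by 3.92 with a pseudocount of 1 in place of 0.1. The gene (ENSMUSG00000026579.8, chr1:164151838-164220277, plus strand) is overlapped by Gm16588 on its own strand and Gm16548 on the opposite one, and their reads may not have been told apart. F2, which encodes prothrombin, and the fibrinogen genes Fga, Fgb and Fgg had no count in any library.

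F13a1 encodes the catalytic A subunit of factor XIII, the enzyme that cross-links fibrin, and is a known macrophage product. It was read at 34.8, 23.6 and 23.8 TPM (27.4 ± 6.43, SD, n = 3), from 2031, 2007 and 3425 expected counts. Replicate 1 was the highest and replicates 2 and 3 nearly coincided. It exceeded F10 in every library, by 0.76, 0.23 and 0.70 in log2(TPM + 0.1) (0.56 ± 0.30). Platelets also carry this subunit, and the part of the megakaryocyte and platelet markers given above in its level was not tested. F13b, which encodes the carrier B subunit made by the liver, had no count.

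F13a1 (ENSMUSG00000039109.16) lies on the minus strand at chr13:36867178-37050244, and Gm49144 and Gm30489 overlap it on the opposite strand. Its 2 coding transcripts have the same coding segments, 732 codons, and differ in where they start. The bases before both starts are shown because the deposited quantifications divide the gene's RNA between these starts differently, as given below; the first window is shorter because bases inside an annotated exon were left out, and it held no match to the motifs searched.
F13a1-201, chr13:37049289-37049463, minus strand: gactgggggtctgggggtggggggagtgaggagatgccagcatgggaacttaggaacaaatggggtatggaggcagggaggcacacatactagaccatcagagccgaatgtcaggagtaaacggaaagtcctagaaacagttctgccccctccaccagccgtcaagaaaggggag
F13a1-202, chr13:37050245-37050494, minus strand: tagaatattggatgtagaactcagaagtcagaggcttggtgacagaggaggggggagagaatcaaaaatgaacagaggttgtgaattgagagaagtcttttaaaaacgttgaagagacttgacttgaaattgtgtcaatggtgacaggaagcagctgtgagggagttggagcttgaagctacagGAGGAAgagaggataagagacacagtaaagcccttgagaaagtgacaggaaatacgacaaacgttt
The second window held 1 PU.1 core match, from -66 to -61.

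The clotting factor list held 18 genes, of which 5 were detected, 4 of them among the 9 genes described. The only other one was Vwf, which encodes von Willebrand factor, at 15.7, 6.20 and 18.3 TPM. It is also an endothelial marker, and with Kdr it made up the 2 endothelial markers detected. A further 9 of the 18 had no count in any library. The median over the list of mean TPM was 0.0133.

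Thbd, the single-exon gene of thrombomodulin (ENSMUSG00000074743.4, chr2:148404466-148408188, minus strand), was read at 0.04, 0.50 and 0.22 TPM from 2, 40 and 30 expected counts. The libraries did not overlap within counting error: in CPM (counts relative to the library total, here scaled between libraries), replicate 1 stood at 0.083 (exact Poisson 95% interval 0.0101 to 0.300), replicate 2 at 1.10 (0.784 to 1.49) and replicate 3 at 0.516 (0.348 to 0.737). These intervals cover counting error only. Thbd was below F3 in every library, by -4.58 ± 0.93 in log2(TPM + 0.1) (SD, n = 3), or -2.71 with a pseudocount of 1.

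Procr encodes the endothelial protein C receptor, which presents protein C to the complex of thrombin and thrombomodulin, and was read at 18.4, 11.5 and 19.4 TPM. Thbd was below it in all libraries, by -7.04, -4.27 and -5.93 in log2(TPM + 0.1) (-5.75 ± 1.40), or by -3.78 on average with a pseudocount of 1. In replicate 2 Procr had its lowest value and Thbd its highest. Proc, which encodes protein C itself, had no count.

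Of 12 anticoagulant genes, 4 were detected: Anxa5, Procr, Tfpi and Pros1. Anxa5, which encodes the phosphatidylserine-binding annexin A5, led at 674.1, 830.6 and 830.4 TPM. Pros1, which encodes protein S, the cofactor of activated protein C, varied least, at 10.3, 11.2 and 10.4 TPM. Over the clotting, anticoagulant and plasminogen lists together, 17 of 43 genes were detected, and of the 34 genes outside the 9 described 10 were, against 18.1% of all mouse genes.

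Genes that process clotting factors were detected more often than the factors themselves, of which 5 of 18 were detected, beside 18.1% of all mouse genes. At a limit of 5 TPM, 4 of the 18 clotting factors and 4 of the 6 processing genes were detected. The share of all mouse genes at that limit was not computed. All 6 genes of the vitamin K cycle and of factor export were detected, led by Furin (160.9, 101.2 and 159.5 TPM), a protease that trims factor precursors, and Mcfd2 (92.5, 139.9 and 99.5 TPM), part of the receptor that carries factors V and VIII out of the endoplasmic reticulum. None of the 4 protease-activated receptor genes, through which thrombin and factor Xa act on cells, was detected. The highest was F2r, the main thrombin receptor gene, at 0.77, 0.76 and 0.73 TPM, followed by F2rl2 at a mean of 0.123 TPM.

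**Figure D2:**
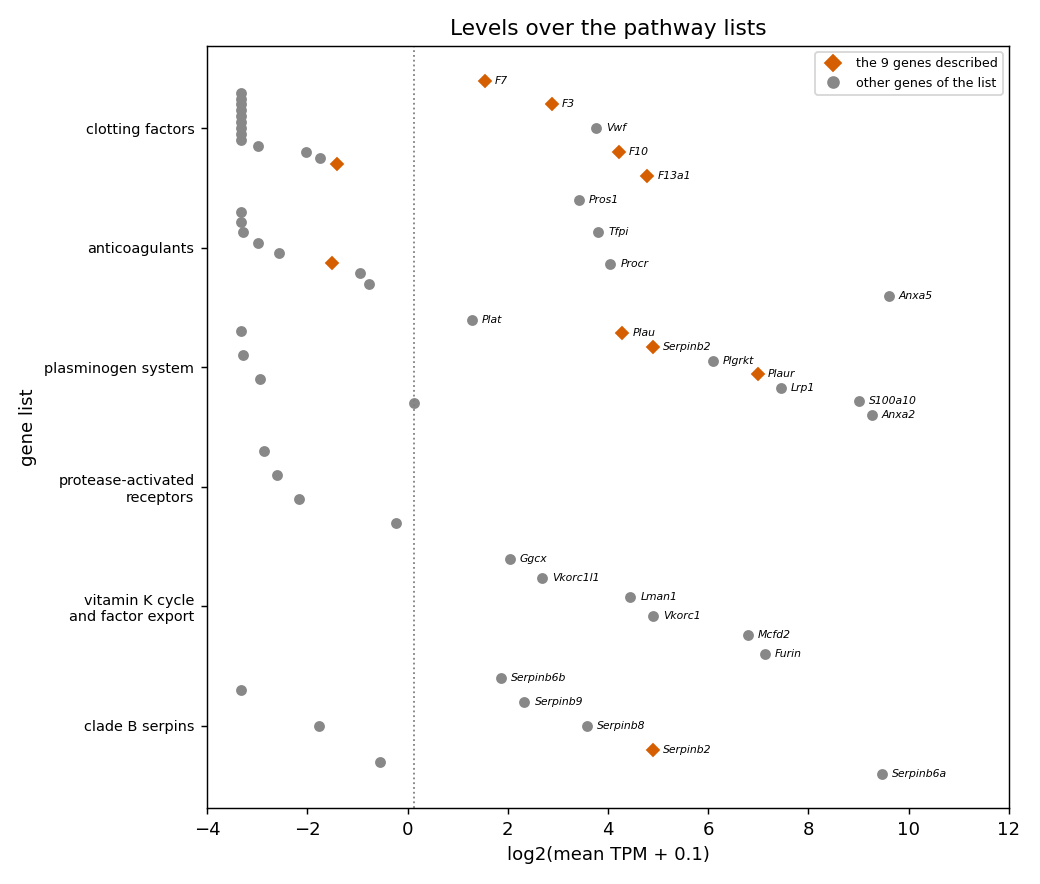
Mean level over 3 libraries of genes of the 6 pathway lists, as log2(mean TPM + 0.1); diamonds are the 9 genes described, circles the other genes of each list, and the dotted line marks 1 TPM. Names stand beside genes with a mean of 1 TPM or more. The clotting factor list has most of its genes at the left edge, where 9 of 18 have no count, while all 6 genes of the vitamin K cycle and factor export lie to the right of the line.

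In 9 of the 10 gene pairs compared within libraries, the same gene was higher in all 3. The exact two-sided sign-flip permutation test gave p = 0.25 for these 9, which is the smallest value that 3 libraries can give, and 0.278 after Benjamini-Hochberg adjustment over the 10 pairs. With this test no pair could pass 0.05 over 3 libraries. The exception was Plau against Serpinb2, with p = 0.5 by the same exact test.

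**Figure D3:**
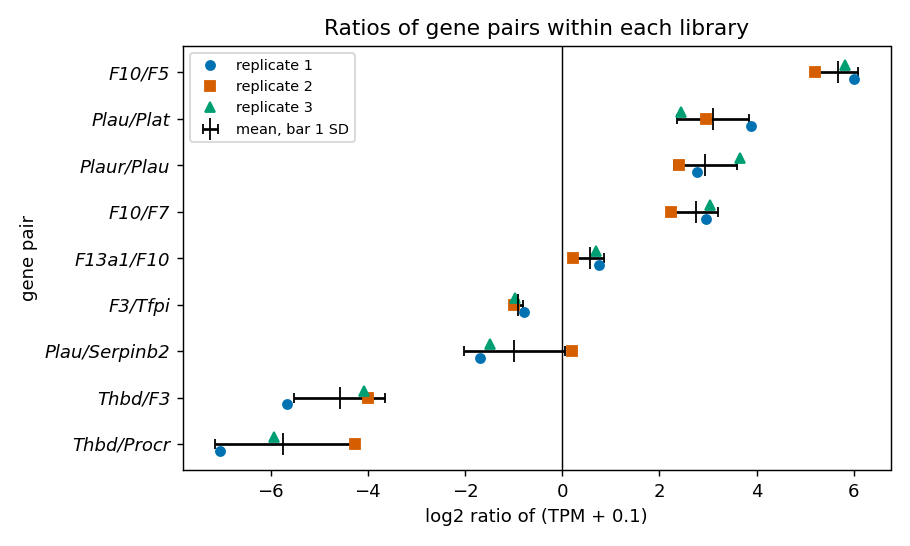
Ratio of the 2 genes of each of 9 pairs within each library, as log2 of (TPM + 0.1) over (TPM + 0.1); points are the 3 replicates, vertical ticks the means and bars 1 SD. The points of Plau/Serpinb2 fall on both sides of 0, those of the other pairs on 1 side, and the F3/Tfpi points lie closest together, between -0.99 and -0.79.

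Replicates were next compared on CPM scaled by TMM, a method that evens out libraries through genes of typical change. Of 11611 genes that passed the filter on low counts, 77.5% departed from equal rates over the 3 libraries by more than counting noise (chi-square test, Benjamini-Hochberg adjusted p under 0.05). All 8 of the 9 genes that passed the filter did so as well, Thbd being left out, and F5 had the largest adjusted p among them, 3.93e-07. A departure of this kind was thus the rule for all genes and compares these libraries, not conditions. Without replicate 2, F5 no longer departed (adjusted p = 0.342), and without replicate 3, F10 (0.397) and Serpinb2 (0.784) no longer did.

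The size of the departure set some of the genes apart. Plau was read at 13.8, 52.6 and 11.1 scaled CPM, a 4.72-fold range that exceeded that of 99.2% of the genes tested. Plaur was read at 54.2, 156.9 and 77.2, a 2.90-fold range (96.4% of genes had a smaller one). For both, replicate 2 was the high library.

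F5 and F7 followed with ranges of 2.66-fold and 2.36-fold, which 95.2% and 92.8% of genes did not reach. The exact Poisson 95% intervals of F5 were 0.671 to 1.53, 1.62 to 2.58 and 0.565 to 1.04 scaled CPM, so its replicate 2 lay above the others beyond counting error while replicates 1 and 3 overlapped. F3 ranged over 1.65-fold, F13a1 over 1.53-fold, Serpinb2 over 1.46-fold and F10 over 1.44-fold, against a median of 1.38-fold over all genes tested. In all, 4 of the 8 genes ranged over at least 2-fold, beside 12.8% of the genes tested. That share was not matched for count level, and F5 rested on 25, 75 and 45 counts and F7 on 65, 154 and 104. In the second quantification 3 of the 8 did, F7 no longer among them, beside 14.9%. With 1 library left out, the share of all genes was below 12.8%. Without replicate 2 it was 5.29%, and 0 of the 8 genes reached 2-fold. Without replicate 3 it was 7.69%, beside 2 of the 8. Without replicate 1 it was 7.34%, beside 5 of 9 genes, since Thbd then passed the filter and was 1 of the 5.

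Of the 8 genes, 6 (Plau, Plaur, F5, F7, F3 and Serpinb2) had their highest scaled value in replicate 2, as did 37.8% of all genes tested, and F10 and F13a1 had theirs in replicate 1, as did 31.6%. None was highest in replicate 3, against 30.6% of all genes. For Serpinb2 the margin was slight, 37.5 against 37.0 scaled CPM. With libraries scaled by total counts, F10 was highest in replicate 2 as well, which gave 7 of 8 beside 48.4% of all genes. Relative to the mean of the other libraries, replicate 2 was higher by 2.08 on the log2 scale for Plau, 1.28 for Plaur, 1.15 for F5, 0.93 for F7 and 0.50 for F3, and lower for F13a1, at -0.36. The median over the 8 genes was 0.72 and over all genes tested 0.01.

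**Figure D4:**
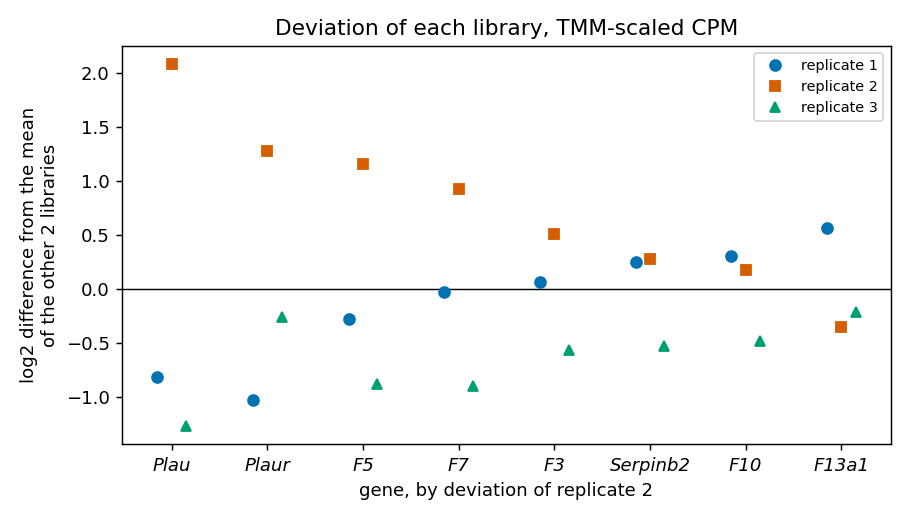
Log2 difference of each library from the mean of the other libraries, in TMM-scaled CPM, for the 8 genes that passed the filter on low counts; points are the 3 replicates. Replicate 2 runs from 2.08 for Plau down to -0.36 for F13a1, and replicate 3 is below 0 for all 8 genes.

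Replicate 2 was also the library with the highest neutrophil, megakaryocyte and stromal marker sums given above, and with the highest sum of 12 genes of the inflammatory response, led by Ccl4 and Ccl3: 11949, 20052 and 7750 TPM, 10 of the 12 genes being highest there. Macrophage markers summed to 29700, 19674 and 24136 TPM, lowest in replicate 2. The part of these differences in the high replicate 2 values of Plau, Plaur, F5, F7 and F3 was not tested. Over the same libraries Serpinb2, F10 and F13a1 ranged by 1.53-fold at most in scaled CPM and by 1.56-fold at most in TPM of the first quantification. In TPM of the second they ranged by 1.80-fold, 1.64-fold and 1.21-fold.

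Spread between replicates beyond counting noise was 23.1% over all genes, as a common biological coefficient of variation (edgeR). The value of Plau, 44.3%, was higher than that of 99.1% of the genes tested, and those of F5, F7 and Plaur were 37.0%, 32.6% and 31.0%. F3 had 24.4%, and F10, F13a1 and Serpinb2 had 20.2%, 20.0% and 19.7%, below the median gene at 21.3%. Without replicate 2 the values of Plau and Plaur were 17.6% and 17.7%, beside a median gene of 17.9%. Those of F10, F13a1 and Serpinb2 were then 17.8%, 17.7% and 17.5%. This fit thus hardly told these genes apart, and nothing is read from the drop for Plau and Plaur. Without replicate 3 they were 35.0% and 30.3% beside 23.9%. Without replicate 1 the fitted values were 20.9% and 19.9% beside 23.0%, yet Plau and Plaur still ranged over at least 2-fold. In scaled CPM, replicates 2 and 3 stood at 52.6 and 11.1 for Plau and at 156.9 and 77.2 for Plaur. The fitted values without replicate 1 did not follow that gap, and the reason was not tested.

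At the level of transcripts, the same transcript held the largest share of each gene's summed TPM in all 3 libraries and in both deposited quantifications. F7, F5 and Thbd have a single annotated transcript. Plau-201, with 433 codons, held 99.4 ± 0.98% of Plau (SD, n = 3) in the quantification from alignments and 97.4 ± 2.48% in the one made directly from reads. F3-201, with 294 codons, held 85.4 ± 4.27% and 88.0 ± 2.35% of F3.

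Plaur-201, the only coding transcript of the gene with 327 codons, held 79.8%, 89.4% and 78.8% of Plaur in replicates 1, 2 and 3 in the first quantification (82.7 ± 5.81%) and 73.8 ± 7.70% in the second. Most of the rest was Plaur-202, a transcript with a retained intron, at 12.6 ± 4.34% and 20.8 ± 5.66%. Replicate 2, where the gene was most abundant, had the smallest share of this transcript in both quantifications, 7.91% and 14.3%. Among the 5 transcripts of F10, all coding, F10-201 held 65.2 ± 8.82% and 67.1 ± 12.9%, and F10-202, which starts at base 13037308 of chromosome 8 against 13037322 for F10-201, held 20.6 ± 3.93% and 14.5 ± 2.70%.

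The quantifications divided coding transcripts differently, most of all for F13a1 and Serpinb2. A smaller change was seen for the coding F3-204, which held 10.1 ± 3.69% of F3 in the first and 2.84 ± 2.47% in the second. F13a1-201 held 68.4%, 87.4% and 75.3% of F13a1 in the first quantification but 93.8%, 99.3% and 98.2% in the second, and F13a1-202 held 22.2 ± 9.07% and 1.17 ± 1.42%. Serpinb2-201 held 82.0 ± 3.97% and 65.3 ± 4.94%, and Serpinb2-202, with the same 415 codons, held 18 ± 3.97% and 34.3 ± 5.56%. In F13a1 and in Serpinb2 the transcripts named share all coding segments. The summed level of the gene moved less: F13a1 had 27.4 ± 6.43 and 23.2 ± 2.22 TPM, and Serpinb2 29.8 ± 6.60 and 24.5 ± 7.45 TPM.

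**Figure D5:**
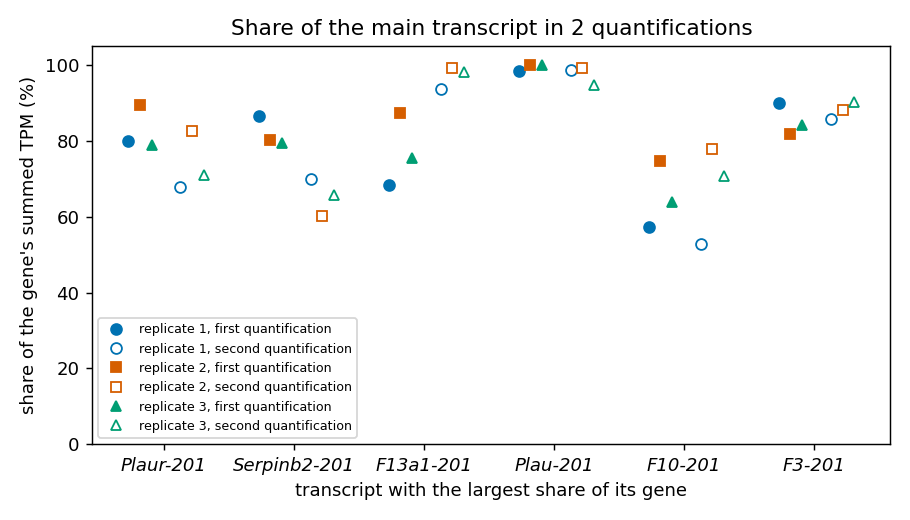
Share of each gene's summed TPM held by its leading transcript, for the 6 genes with more than 1 annotated transcript; filled points are the quantification from alignments, open points the one made directly from reads, in 3 replicates. Filled and open points are furthest apart for F13a1-201 and Serpinb2-201, in opposite directions.

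The protein-coding genes with the pattern nearest to Plaur, the most abundant of the 9 genes, were sought by Euclidean distance in log2(TPM + 0.1) over the 3 libraries among 9379 detected genes. Mmp12, the gene of macrophage elastase, was nearest at a distance of 0.0908, with 69.1, 212.7 and 108.0 TPM. Atp6v0d2, a subunit gene of the vacuolar proton pump, followed at 0.442 and Acp5, the gene of tartrate-resistant acid phosphatase, at 0.461. For Plau, the detected gene of the 9 with the widest range, the nearest were Ifnb1, the interferon beta gene, at 0.481 with 9.34, 29.6 and 8.98 TPM, then Apol7c at 0.603 and Chil3 at 0.693. With 3 libraries these distances describe level and pattern together.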

How the data were processed

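For each library the authors deposited a gene and a transcript quantification made from alignments, with expected counts, TPM and FPKM per the file headers, and a second transcript quantification made directly from reads, with estimated counts and TPM. The text files deposited beside them name mm10 and GENCODE M21; not given in the sources used here are the aligner, the quantifiers and any use of strand. The 3 libraries were not pooled. Labels call them biological replicates but give 1 donor identifier, so tests measure only the spread between these samples, which may be technical.

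A listed gene and its pair are counted but not reported here. The 9 genes, the gene lists and the pairs were chosen with earlier results of these data known. All 9 were matched by symbol and gene identifier. TPM was the unit for levels. Ratios used log2(TPM + 0.1), which understates differences of genes with low TPM, and an exact sign-flip permutation test. Detection required 1 TPM or more in every library. Deposited FPKM served only as an alternative. Entries that are not mouse genes held 0.117%, 0.0993% and 0.082% of the counts and were left out of library sizes. A share of 0 counts allows up to 3 counts, 1.23e-05%, 8.66e-06% and 4.95e-06% of the libraries; this covers counting error only. Deeper libraries are the more precise.

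Expected counts were rounded to whole numbers, filtered with edgeR 4.0.16 (R 4.3.3) at its default setting, scaled by TMM and tested by chi-square against equal rates, with Benjamini-Hochberg adjustment over all genes; edgeR also gave the coefficient of variation from an intercept-only design. The scripts were tested on simulated data. A ribosomal RNA gene took 8.40% of the counts of replicate 3 and 1.89% of replicate 2; TPM is shared with it, while TMM scaling is affected less.

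Named were the 9 genes, the genes of the pairs, the 2 most abundant of each list and, for the most abundant gene and the detected gene with the widest range, the 3 nearest in pattern; genes with no count that are the substrates or partners described, Pros1, Proz and Serpinb10 were chosen after their values were seen. Alternatives were a detection limit of 0.5 or 5 TPM, a pseudocount of 1, FPKM, the second quantification, DESeq2 1.42.0 size factors, total counts, no filter on low counts and each library left out.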

Additional observations from a re-analysis of the deposited data

How the results depend on the processing

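Of 205 values recomputed under the alternatives, 14 moved beyond the limit set for their kind, such as 1 SD for a level. All 60 recomputed gene pair ratios kept their direction, and the count of detected genes among the 9 remained 7 except at a limit of 5 TPM, where it was 6. At a limit of 0.5 TPM, 1 protease-activated receptor gene was detected in place of 0, and at 5 TPM 3 clade B serpins in place of 5. With 1 library left out, an alternative chosen after seeing the data, the genes of the 9 that passed the filter and ranged over at least 2-fold numbered 0 (of 8, without replicate 2) to 5 (of 9, Thbd included, without replicate 1), and the common coefficient of variation lay between 19.4% and 24.8%; the cause was not tested. Without a library, the genes departing from equal rates numbered 6090 to 7851, against 8999. FPKM gave other numbers for levels because it is another unit. Counts not scaled for length moved F10 against F5 from 5.68 to 3.96 and F13a1 against F10 from 0.56 to 1.69 in log2. No paired analysis was possible because all 3 libraries form a single group. Depth limits Thbd most, which had 2 counts in replicate 1, and then F5.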
